A study of Columba livia and Gallus gallus with 96 samples.

Results

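Oxidative phosphorylation is carried out in the inner mitochondrial membrane by 5 protein complexes. Complexes I and II pass electrons from NADH and succinate to ubiquinone, complex III hands them to cytochrome c, complex IV reduces oxygen, and complex V, the ATP synthase, uses the resulting proton gradient to make ATP. Apart from a small set encoded by mitochondrial DNA, the subunits are products of nuclear genes. The nuclear genes were described here in limb buds of domestic pigeon (Columba livia) embryos, where the bud passes from proliferating mesenchyme to a limb with early cartilage and muscle. The roles given below come mainly from work on the mammalian enzymes.

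Members were chosen by gene symbol alone: every feature named as a subunit of complexes I to V in the pigeon annotation used by the authors. The rule found 47 genes, each counted as 1 feature, among 15899 rows of pigeon genes or unnamed features. The set held 7 core and 20 accessory subunits of complex I, all 4 subunits of complex II (succinate dehydrogenase) and 14 genes of complex V. NDUFA4 and its paralogue NDUFA4L2, named for complex I but assigned to complex IV, made up the rest. Subunits of complexes III and IV carry descriptive names in place of symbols in this annotation, so the rule found 0 of them. A further 15 rows with such names, 7 for complex III and 8 for complex IV, were kept beside the members and were picked by name after the files had been seen. Of 39 names and aliases of genes carried by mitochondrial DNA, 0 matched a feature, so nuclear genes alone were described.

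Counts were available from 72 pigeon libraries in 18 groups of 4. The groups cross 3 foot phenotypes (scale, with scaled feet, and grouse and muff, both feather-footed) with forelimb or hindlimb and with 3 Hamburger-Hamilton stages, HH21, HH25 and HH29 (embryonic days 3.5, 4.5 and 6). A library came from a pair of limb buds, and poly(A) RNA was sequenced with strand kept. The labels give neither the sex of the embryos nor whether the 4 replicates came from separate embryos, so p-values measure only the spread between these libraries. Libraries were run 12 to a sequencing lane and the labels do not say which shared one, so lane and group cannot be told apart. Library totals ran from 10438537 to 16378164 counts with a median of 12915094.5. Levels are given as CPM, counts scaled by library total and a trimmed-mean factor, a unit that does not correct for transcript length, so levels of different genes were not compared. A gene was called when its adjusted p from edgeR's quasi-likelihood test, corrected over all genes tested, was below 0.05.

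The 47 genes together made up a similar share of the RNA in most libraries. Their summed level had a median of 8163 CPM over the 24 libraries of HH21 (range 7493 to 11198), 7888 CPM at HH25 (7060 to 9081) and 7259 CPM at HH29 (6318 to 7948). The course to HH25 differed between replicate numbers: in replicates 1 and 2 the median went from 8677 CPM at HH21 to 7698 CPM at HH25, and in replicates 3 and 4 from 7907 to 8433 CPM. At HH29 these medians were 7137 and 7336 CPM. At HH21, 4 hindlimb libraries stood above the other 20. Grouse replicates 1 and 2 held 11198 and 9806 CPM, and muff replicates 1 and 2 held 10057 and 10275 CPM, against 7493 to 8735 CPM in the rest. These 4 libraries were picked by the summed level of the members, so higher levels of many members follow from the choice. No share over all genes is given for the next 2 counts. The median level of 45 of the 46 members tested was higher in these 4 libraries than in the other 20. For 10 members (ATP5B, ATP5G1, ATP5G3, NDUFA13, NDUFA8, NDUFB6, NDUFS3, NDUFS6, NDUFV1 and SDHD) all 4 lay above all 20. Other abundant RNAs stood apart there too: cytosolic ribosomal protein genes summed to 78722 to 100727 CPM against 62714 to 74526 CPM, and glycolysis genes to 12015 to 12890 CPM against 9064 to 11043 CPM. Muscle markers did not separate the libraries, at 21.9 to 48.3 CPM against 23.4 to 94.4 CPM. The part of these differences in the results below was not tested beyond the fits without the 4 libraries that are given.

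**Figure D1:**
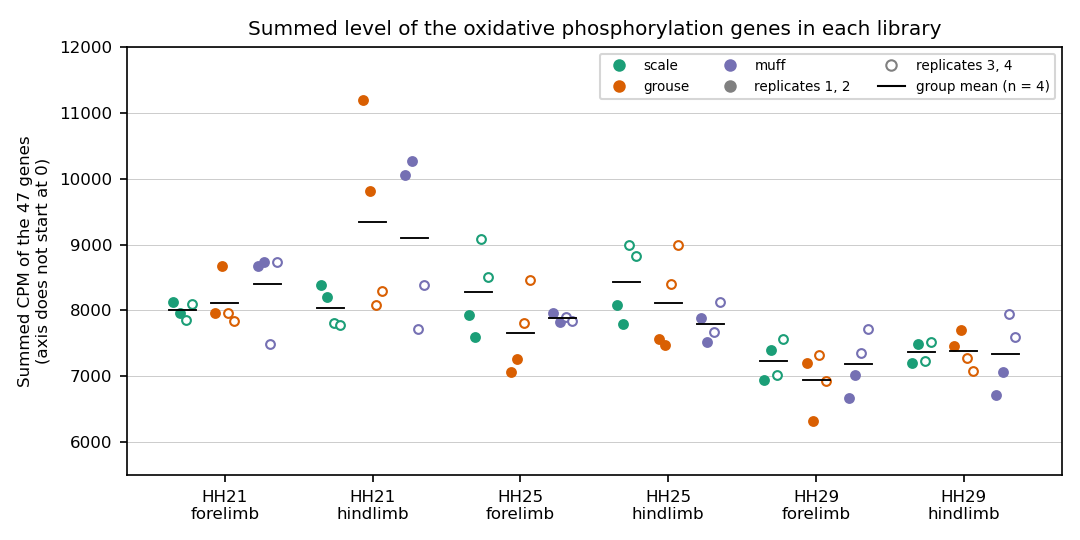
Summed CPM of the 47 genes (vertical axis, not starting at 0) in each of the 72 libraries, by stage, limb and phenotype; filled points are replicates 1 and 2, open points replicates 3 and 4, and bars are group means (n = 4). The 4 filled grouse and muff points of the HH21 hindlimb lie at 9806 CPM or more, above all other libraries.

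A larger split ran along the replicate numbers. Each replicate set holds forelimb and hindlimb libraries of the same numbers, which vary together. The libraries of a set are thus not independent, which limits the counts and shares below. At HH21, 20 members differed between replicates 3 and 4 and replicates 1 and 2 (37.4% of all genes tested were called, 17.3% higher and 20.1% lower), 1 higher and 19 lower in 3 and 4. At HH25, 28 members differed (53.9% of all genes, 27.3% higher and 26.6% lower), and now 22 were higher and 6 lower. At HH29 NDUFB5, an accessory subunit of the membrane arm of complex I, was the only member called, lower in 3 and 4, beside 2.64% of all genes, 0.738% higher and 1.9% lower. All 17 members called at both HH21 and HH25 were lower in replicates 3 and 4 at HH21 and higher there at HH25. Across the 46 members tested the HH21 and HH25 differences ran against each other (Pearson r = -0.82, Spearman rho = -0.78, a description over genes of the same libraries).

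NDUFA11, an accessory subunit of the membrane arm, shows the size of this split. At HH21 it lay at 59.0 to 108 CPM (median 68.3) in replicates 1 and 2 and at 37.0 to 48.1 CPM (median 43.6) in replicates 3 and 4, with no overlap between the 12 and 12 libraries. At HH25 the order was turned, with 40.0 to 56.5 CPM (median 48.1) against 70.7 to 91.0 CPM (median 77.6), again with no overlap. At HH29 the ranges met, at 25.9 to 68.4 CPM and 52.8 to 64.3 CPM. On the log2 scale these differences were -0.77 (HH21) and 0.71 (HH25). NDUFV1, the NADH-binding flavin subunit, moved by -0.54 and 0.67, and ATP5G1, a gene for the proton-carrying ring subunit of the ATP synthase, by -0.66 and 0.79. NDUFS1, the large iron-sulphur subunit that takes in electrons next to NDUFV1, showed no such split at 0.00 and 0.00. SDHA, the succinate-oxidising subunit of complex II, moved by 0.03 and -0.05, not called. ATP5C1 and ATP5F1, of the ATP synthase, had 0.02 at HH21 and were called lower in replicates 3 and 4 at HH25, by 0.22 and 0.16.

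At HH25, 10 of 12 muscle markers (median log2 difference 0.89) and 9 of 10 cartilage markers (median 0.54) were also higher in replicates 3 and 4. At HH21 the same median was -0.31 for the muscle markers, of which 2 of 9 tested were called lower. The turn was not particular to the members. Of 66 cytosolic ribosomal protein genes, 2 were higher and 33 lower in replicates 3 and 4 at HH21, and 41 higher and 8 lower at HH25. Glycolysis genes (13) gave 1 and 8, then 9 and 0. Mitochondrial ribosomal protein genes (64) had more falls at both stages (5 and 29, then 18 and 25), as did assembly factors (2 and 8, then 3 and 15). No label says what the replicate numbers stand for, and the part of these lists and markers in the split was not tested. Stage differences were therefore also fitted within replicates 1 and 2 and within replicates 3 and 4, and both values are given for every called member whose sign turned between the sets.

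**Figure D2:**
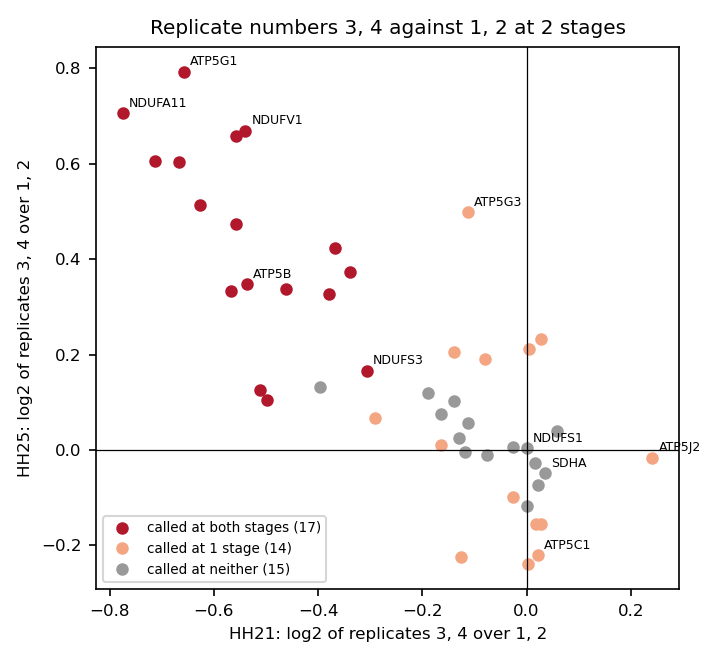
Log2 difference of replicates 3 and 4 over replicates 1 and 2 at HH21 (horizontal) and HH25 (vertical), 1 point for each of 46 genes, coloured by the number of stages at which edgeR called it. The 17 genes called at both stages all lie in the upper left corner, and most of the 15 genes called at neither lie near the origin.

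The first question was how the genes change as the limb grows. Each stage was compared with the one before it in forelimb and hindlimb, 12 libraries against 12 with phenotype as a covariate. Consecutive steps share their HH25 libraries, so the steps are not independent. From HH21 to HH25 in the forelimb, 17 of 46 members were called, 6 higher and 11 lower, while 56.1% of all genes were called (28.2% higher and 27.9% lower). In the hindlimb 18 members were called, 3 higher and 15 lower, beside 50.8% of all genes (25.9% and 25%). From HH25 to HH29 in the forelimb, 18 members were called, 1 higher and 17 lower, beside 46.0% (23.1% and 22.8%). In the hindlimb 17 were called, 2 higher and 15 lower, beside 54.2% (27.1% and 27.0%). The share of members called was thus 37.0% to 39.1%, below that of all genes in each comparison, and most of the calls were falls.

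The sizes were small. The median member moved by -0.03 and -0.09 (forelimb, hindlimb) to HH25 and by -0.16 and -0.11 to HH29 on the log2 scale, and the medians of all genes lay within 0.01 of 0. From HH25 to HH29, 7 of 46 members in the forelimb and 6 of 46 in the hindlimb had a fold change above 0. The balance of the hindlimb step to HH25 changed when the 4 high HH21 libraries were left out. Without them, which leaves grouse and muff with replicates 3 and 4 at HH21, 27 members were called, 17 higher and 10 lower, beside 58.3% of all genes (30.2% and 28.1%), and the median turned to 0.07. Of the 18 members called with all libraries, 13 (10 lower and 3 higher) were called in the same direction without the 4. The calls of ATP5E, NDUFA10, NDUFA5, NDUFA8 and NDUFS3, all falls, were lost. Leaving out the 4 also shifts HH21 toward replicates 3 and 4. Within replicates 3 and 4, which hold none of the 4, 21 members rose and 11 fell (median 0.11). The part of the high libraries, apart from that of the replicate sets, was not tested.

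The balance of rises and falls differed between the replicate sets. To HH25 in the forelimb, 4 members rose and 18 fell within replicates 1 and 2 (median -0.11), beside 41.5% of all genes called (21.5% higher and 20% lower). Within replicates 3 and 4, 16 rose and 11 fell (median 0.07), beside 64.5% (33.3% and 31.3%). In the hindlimb 1 rose and 29 fell in the first set (median -0.26), beside 40.5% (21.3% and 19.1%), and 21 rose and 11 fell in the other (median 0.11), beside 63.4% (32.6% and 30.8%). To HH29 in the forelimb the called members fell in both sets, 6 in the first (30.2% of all genes called, 14.1% lower) and 22 in the other (38.4%, 18.7% lower), and 0 rose in either. In the hindlimb the first set had no clear direction to HH29, with 5 rises and 9 falls (median -0.00, 23 of 46 members above 0), beside 47.3% (24.8% and 22.5%). In the other set 0 rose and 22 fell (median -0.16, 2 of 46 above 0), beside 37.2%, of which 18.6% were lower.

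**Figure D3:**
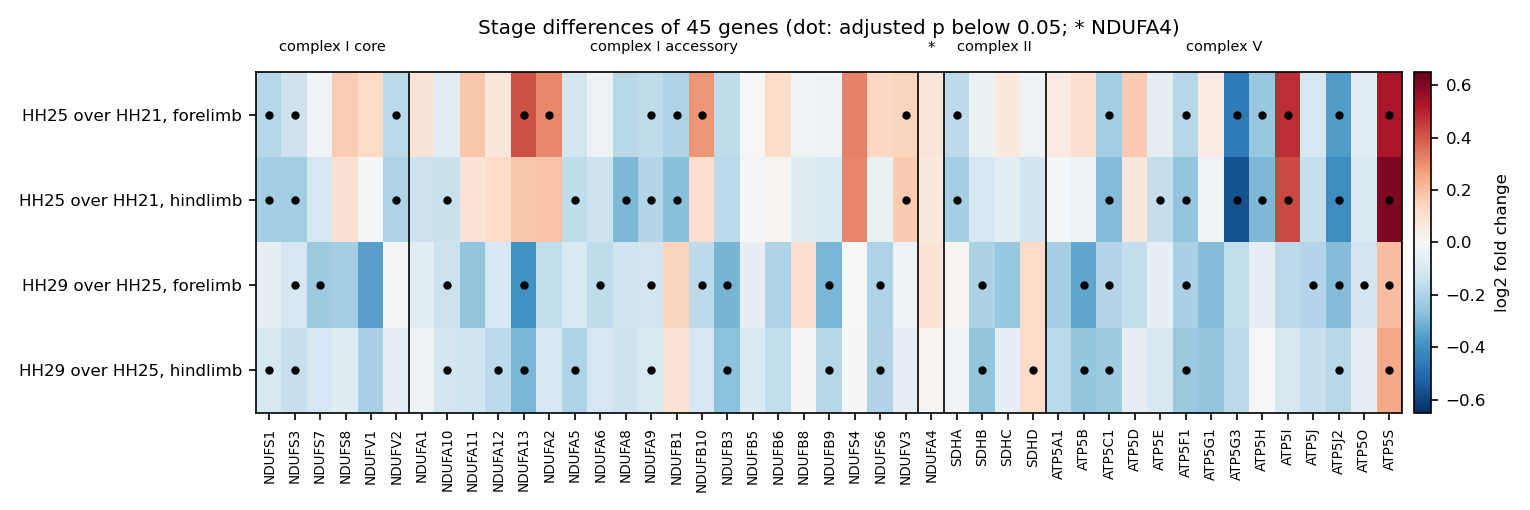
Log2 fold change (colour) of 45 of the 46 tested genes in the 4 stage comparisons (rows), with genes in columns grouped by complex; dots mark an adjusted p below 0.05 from edgeR. Blue dominates the 2 lower rows, HH29 over HH25, and the strongest colours belong to ATP5S and ATP5I (up) and ATP5G3 and ATP5J2 (down).

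The 7 core subunits of complex I hold the flavin, the iron-sulphur clusters and the ubiquinone site of the matrix arm. Of these, 3 fell in each limb from HH21 to HH25 and 2 in each limb from HH25 to HH29, and 0 rose. NDUFS1 had 208 to 278 CPM (median 241) at HH21 and 201 to 238 CPM (median 212) at HH25 in the forelimb. In the hindlimb it went from 238 to 298 CPM (median 254) to 205 to 240 CPM (median 219) over the same step. Most HH25 libraries lay below most HH21 libraries in both limbs, and the ranges overlapped at their ends. NDUFS1 fell by 0.19 (SE 0.03, adjusted p = 2.8e-05) in the forelimb and by 0.22 (SE 0.03, adjusted p = 5.7e-06) in the hindlimb. The falls were as large within replicates 1 and 2 (-0.19 in both limbs) as within 3 and 4 (-0.18 and -0.24), and all 4 passed the test. To HH29 it fell by a further 0.10 in the hindlimb (adjusted p = 0.0075).

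NDUFV2, the second iron-sulphur subunit of the NADH module, fell by 0.18 and 0.20 to HH25, and its values to HH29 were -0.01 and -0.05. NDUFS3, a subunit of the module that leads electrons to ubiquinone, was called lower in all 4 comparisons (-0.13 and -0.23 to HH25, -0.11 and -0.15 to HH29). To HH25 it fell within replicates 1 and 2 (-0.30 and -0.49), and its values within replicates 3 and 4 were 0.05 and 0.06, not called. Without single libraries its forelimb call at HH25 was lost in 9 of 24 fits. NDUFS7, which carries the last iron-sulphur cluster before ubiquinone, was called lower in the forelimb at HH29 (-0.24, adjusted p = 0.049), a call lost in 15 of 24 such fits. NDUFV1 and NDUFS8 were not called in any of the 4 comparisons. Both carry the replicate split: NDUFV1 moved to HH25 in the forelimb by -0.44 within replicates 1 and 2 and by 0.66 within 3 and 4, both past the threshold, and NDUFS8 by -0.44 and 0.74.

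The 20 accessory subunits surround the core of complex I and are needed for its assembly and stability. From HH21 to HH25, 4 rose and 2 fell in the forelimb, and 1 rose and 5 fell in the hindlimb. From HH25 to HH29, 0 rose and 8 fell in each limb. NDUFA9, which sits by the ubiquinone site, fell in all 4 comparisons, by 0.17 and 0.19 to HH25 and by 0.12 and 0.10 to HH29 (forelimb and hindlimb). NDUFB9 and NDUFB3, 2 subunits of the membrane arm, fell to HH29. NDUFB9 had 80.0 to 98.5 CPM (median 87.7) at HH25 and 41.2 to 82.2 CPM (median 75.5) at HH29 in the forelimb, and 79.4 to 97.1 CPM (median 88.2) and 69.8 to 85.3 CPM (median 76.1) in the hindlimb. In both limbs the HH29 libraries reached only into the lower end of the HH25 range. The falls were -0.30 (SE 0.08, adjusted p = 0.0033) and -0.18 (SE 0.04, adjusted p = 0.00036), and each held within replicates 1 and 2 (-0.41 and -0.16) and within 3 and 4 (-0.18 and -0.20). NDUFB3 fell by 0.30 and 0.27.

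NDUFA13, a membrane-arm subunit also known as GRIM19, rose and then fell. In the forelimb it had 16.8 to 28.3 CPM (median 19.8) at HH21, 20.5 to 38.6 CPM (median 27.1) at HH25 and 13.3 to 25.9 CPM (median 21.6) at HH29. The rise was 0.41 (SE 0.09, adjusted p = 0.00062) and the fall -0.39 (SE 0.10, adjusted p = 0.0021). The forelimb rise was 0.72 in replicates 3 and 4 and 0.12, not called, in replicates 1 and 2. In the hindlimb it was 0.18, not called, and the fall to HH29 was -0.30. NDUFB10, another membrane-arm subunit, had the same course in the forelimb (0.29 and -0.17), and NDUFA2, a small subunit of the NADH-oxidising arm, rose there by 0.31. Both turned sign between the replicate sets: NDUFB10 moved by -0.09 and 0.71 and NDUFA2 by -0.23 and 0.85. The NDUFA2 call was lost in 12 of 24 fits that left out 1 library, and the NDUFB10 fall in 15 of 24. NDUFV3, which lies beside the flavin, rose by 0.14 and 0.17 to HH25, and its value was above 0 in both replicate sets of both limbs.

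NDUFB1, of the membrane arm, fell to HH25 by 0.20 in the forelimb and 0.27 in the hindlimb. Its fall within replicates 1 and 2 alone was not called in either limb (-0.05 and -0.26). The forelimb call was lost without scale replicate 3 of HH21 or scale replicate 4 of HH25. NDUFA8, an intermembrane-space subunit, fell by 0.29 in the hindlimb to HH25, a call lost without muff hindlimb replicate 1 or 2 of HH21 or replicate 1 of HH25. It moved by -0.67 within replicates 1 and 2, past the threshold, and by 0.11 within 3 and 4, not called. NDUFA10 (-0.14 and -0.12) and NDUFS6 (-0.20 and -0.19) fell to HH29 in both limbs, NDUFA6 (-0.16) in the forelimb alone, and NDUFA5 (-0.20) and NDUFA12 (-0.17) in the hindlimb alone. NDUFS6 passed within replicates 3 and 4 alone, at -0.32 and -0.42, and had -0.08 and 0.02 within 1 and 2. Its hindlimb call was lost in 8 of 24 fits. Whether limbs differed was tested directly and is given below.

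In complex II, SDHA fell to HH25 and SDHB to HH29. SDHA, the flavin subunit that oxidises succinate, fell to HH25 by 0.17 (SE 0.03) in the forelimb and 0.22 (SE 0.04) in the hindlimb. SDHA values to HH29 were 0.02 and -0.02. SDHB, the iron-sulphur subunit, was called to HH29. Its forelimb level went from 105 to 120 CPM (median 114) at HH25 to 88.2 to 124 CPM (median 96.9) at HH29, and its hindlimb level from 108 to 131 CPM (median 120) to 93.7 to 108 CPM (median 98.9). In the hindlimb every HH29 library lay below the lowest HH25 library, and in the forelimb the highest HH29 library lay above the HH25 range. The falls were -0.21 (SE 0.05, adjusted p = 0.00053) and -0.25 (SE 0.04, adjusted p = 1.3e-06), and the hindlimb fall held in both replicate sets (-0.27 and -0.23). SDHC, a membrane anchor, was called in none of the 4 comparisons. SDHD, the other anchor, rose by 0.12 in the hindlimb at HH29, a call lost in 11 of 24 fits that left out 1 library. The rise was 0.26 within replicates 1 and 2, past the threshold, and -0.01 within 3 and 4.

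In complex V, 2 members rose and 5 fell in the forelimb to HH25, and 2 rose and 6 fell in the hindlimb. To HH29, 1 rose and 6 fell in the forelimb and 1 rose and 4 fell in the hindlimb. ATP5C1, the rotating gamma subunit, fell in all 4 comparisons (-0.23 and -0.28 to HH25, -0.19 and -0.23 to HH29). So did ATP5F1, subunit b of the peripheral stalk (-0.18, -0.25, -0.21 and -0.24 in the same order), and ATP5J2, subunit f of the membrane part (-0.36, -0.41, -0.28 and -0.18). ATP5F1 is the clearest of these. Its hindlimb level went from 412 to 608 CPM (median 493) at HH21 through 388 to 456 CPM (median 409) at HH25 to 330 to 376 CPM (median 350) at HH29. At HH29 all 12 hindlimb libraries lay below all 12 of HH25. The fall to HH29 had an adjusted p of 2.1e-06 and was -0.29 within replicates 1 and 2 and -0.18 within 3 and 4.

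ATP5G1 and ATP5G3 encode the same mature ring subunit with different import sequences, and ATP5G2 had no feature. ATP5G3 showed the largest fall of all members. In the forelimb it had 514 to 667 CPM (median 595) at HH21 and 339 to 530 CPM (median 431) at HH25, and in the hindlimb 573 to 808 CPM (median 626) and 337 to 567 CPM (median 454). In the hindlimb all 12 HH25 libraries lay below all 12 of HH21, and in the forelimb the ranges overlapped at their ends. The falls were -0.46 (SE 0.08) and -0.56 (SE 0.09), each with an adjusted p of 1.5e-05. ATP5G3 fell in both replicate sets, though by -0.72 and -0.92 in replicates 1 and 2 against -0.23 and -0.24 in 3 and 4. ATP5G1 was called in none of the 4 comparisons, and went from a median of 30.5 CPM at HH21 to 33.2 CPM at HH25 in the forelimb and from 33.6 to 36.1 CPM in the hindlimb. The difference between these 2 genes was not tested.

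ATP5B, the catalytic beta subunit, fell to HH29 by 0.34 (SE 0.10) and 0.25 (SE 0.07). To HH25 its values were 0.11 and -0.04, made of -0.29 and -0.47 within replicates 1 and 2 and 0.52 and 0.44 within 3 and 4, all past the threshold. ATP5H, subunit d of the stalk, fell to HH25 (-0.25 and -0.29), and ATP5E, the epsilon subunit, fell there in the hindlimb alone (-0.15). The ATP5E call was lost without the 4 high HH21 libraries. ATP5J (-0.19) and ATP5O (-0.12), 2 further stalk subunits, fell to HH29 in the forelimb.

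ATP5S, coupling factor B, was the only member called higher in all 4 comparisons. It lies outside the enzyme proper, and RefSeq now names it DMAC2L. In the forelimb it had 20.8 to 36.5 CPM (median 30.6) at HH21, 36.1 to 61.6 CPM (median 39.7) at HH25 and 38.0 to 66.3 CPM (median 48.1) at HH29. In the hindlimb it had 19.6 to 42.3 CPM (median 27.7), 32.0 to 65.0 CPM (median 38.8) and 42.1 to 59.9 CPM (median 49.4). The HH21 and HH25 ranges met at their ends in the forelimb and overlapped further in the hindlimb, and HH25 and HH29 overlapped widely. ATP5S rose to HH25 by 0.53 (SE 0.06, adjusted p = 1.2e-07) and 0.61 (SE 0.09, adjusted p = 3.0e-06), and both replicate sets passed in both limbs. To HH29 it rose by 0.20 and 0.25, and the forelimb call was lost without muff replicate 1 of HH29.

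Most called members had the same sign in both replicate sets: 14 of 17 and 16 of 18 to HH25 and 18 of 18 and 15 of 17 to HH29 (forelimb, hindlimb). These members were called in fits of the same libraries, so the choice itself favours a shared sign. No share over all genes is given for these counts or for the calls in both sets. Calls in both sets were fewer. To HH25 they were ATP5G3, ATP5H, ATP5S and NDUFS1 in the forelimb, joined in the hindlimb by ATP5C1, ATP5F1, ATP5J2 and SDHA. To HH29 they were ATP5F1 and NDUFB9 in the forelimb, joined in the hindlimb by NDUFB3 and SDHB. In the forelimb at HH29, grouse replicate 2 held the lowest of 12 levels for 21 of 46 members and the highest for 10. Without it 14 members were called to HH29, and the fits without another library called 13 to 19.

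Among the rows with descriptive names, the calls in complex III were falls and those in complex IV went both ways. Of 7 complex III subunits 4 fell in each limb to HH25, and 1 (forelimb) and 2 (hindlimb) fell to HH29, with 0 rising. Cytochrome b-c1 complex subunits 1 and 2, the large matrix-facing subunits, fell by 0.17 and 0.14 in the forelimb and by 0.29 and 0.19 in the hindlimb to HH25. Of 8 complex IV subunits, 2 rose and 1 fell in the forelimb and 1 rose and 1 fell in the hindlimb to HH25, and 3 and 2 fell to HH29. Cytochrome c oxidase subunit 5A, which faces the matrix, was called to HH29 alone, at -0.32 in the forelimb (SE 0.05, adjusted p = 2.2e-05) and -0.26 in the hindlimb (SE 0.05, adjusted p = 5.1e-05). Cytochrome c oxidase subunit 7A2 fell to HH25 by 0.32 and 0.40.

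NDUFA4, a subunit of cytochrome c oxidase, was called in none of the 4 comparisons, and its medians lay between 217 and 247 CPM in all stages and limbs. NDUFA4L2, its paralogue, which is induced by low oxygen in mammalian cells, was close to absent. It had 8 counts in all 24 libraries of HH21, 22 at HH25 and 88 at HH29, with at most 10 in a library, and was present in 7, 13 and 21 libraries. At HH29 the hindlimb held 56 and the forelimb 32 of these counts. It did not pass the filter on low counts and was not tested.

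The second question was whether forelimb and hindlimb differ. In unblocked fits, 12 libraries against 12 with phenotype as a covariate, 0 of 46 members were called at HH21, HH25 or HH29, beside 6.21%, 8.37% and 8.49% of all genes. At an unadjusted p below 0.05 there were 8, 1 and 0 members, and DESeq2 called 0 at each stage. The share of all genes at that unadjusted cut is not given. At HH21, 44 of 46 members were higher in the hindlimb with a median of 0.10, which was 0.18 within replicates 1 and 2 and -0.01 within 3 and 4. Without the 4 high hindlimb libraries the median was -0.05 and 15 of 46 were above 0. With all libraries, other lists also lay higher in the hindlimb at HH21. These were 63 of 64 mitochondrial ribosomal protein genes (median 0.09), 62 of 66 cytosolic ones (0.05) and 19 of 19 proliferation genes (0.13). Cartilage and muscle markers did not, with 1 of 9 and 0 of 9 above 0. The share of all genes above 0 is not given. ATP5G3 was called, at 0.18, in each of 5 fits that left out 1 library (scale hindlimb replicate 1, muff forelimb replicate 1, grouse hindlimb replicate 3, muff hindlimb replicate 3 or scale forelimb replicate 4), the last of which also called ATP5F1.

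Forelimb and hindlimb libraries of 1 replicate number varied together, so the limb comparison was repeated with that number as a block. Blocked, 7 of 46 members were called at HH21, beside 14.7% of all genes, 6.56% higher and 8.15% lower. All were higher in the hindlimb (ATP5C1, ATP5F1, ATP5G3, NDUFA1, NDUFA8, NDUFS3 and SDHB, by 0.09 to 0.23). This fit holds the 4 high hindlimb libraries, and a blocked fit without them is not given. At HH25, 6 were called beside 26.7% (13.4% higher and 13.2% lower). ATP5F1, NDUFA12, NDUFA4, NDUFA5 and NDUFS4 were higher by 0.06 to 0.11 and SDHC lower by -0.07. At HH29 0 were called beside 16.7%. The change from stage to stage did not differ detectably between limbs: 0 members were called for the difference of the limbs to HH25 (1.81% of all genes) or to HH29 (1.21%), with lowest adjusted p-values of 0.95 and 0.84. At an unadjusted p below 0.05 there were 0 and 0, and DESeq2 also called 0 and 0. In the step to HH25, 43 of 46 members had the lower value in the hindlimb, and without the 4 high libraries 33 of 46 had the higher value there. The shares of all genes for these counts of direction and at the unadjusted cut are not given.

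The third question was whether the feather-footed phenotypes differ from scale or from each other. Among 18 comparisons of 4 libraries against 4, 1 call was made by edgeR, for NDUFA2 in the HH29 forelimb of muff against grouse. At an unadjusted p below 0.05 there were 1 to 15 members per comparison, and DESeq2 called 0 to 5. The shares of all genes for these counts are not given, so they were not read against a background. With a term for the replicate sets edgeR called more at HH25. In muff over scale it then called 6 members in the hindlimb (4.78% of all genes) and 2 in the forelimb (2.71%), in grouse over scale 2 (2.46%) and 3 (2.53%), and in muff over grouse 2 (1.9%) and 2 (2.58%), all lower in the phenotype named first. The calls against scale include Z-linked genes: NDUFS4 in the hindlimb of muff and grouse, and ATP5I in both limbs of muff and the forelimb of grouse. All 8 scale libraries of HH25 had high Z-chromosome expression, as described below, against 2 of 8 grouse and 2 of 8 muff libraries. With the term for replicate sets 2 were called in muff over grouse in the HH21 hindlimb (1.01%), and 0 in the other comparisons of HH21 and HH29. Without it genes at large were also called rarely, at 0.0% (grouse over scale), 0.317% (muff over scale) and 0.117% (muff over grouse) in the HH21 hindlimb and 0.0996%, 0.0997% and 0.921% in the forelimb. At HH25 the same 3 shares were 0.146%, 0.339% and 0.602% in the hindlimb and 0.186%, 0.129% and 0.651% in the forelimb. At HH29 they were 0.326%, 0.3% and 2.94% in the hindlimb and 0.0317%, 0.742% and 1.06% (0.726% higher and 0.331% lower) in the forelimb. In the HH21 hindlimb, where the 4 high libraries stand, the member median was 0.23 in grouse over scale and 0.19 in muff over scale, with 41 and 42 of 46 above 0. Without those libraries the medians were -0.02 and -0.01, with 21 and 23 above 0, and 0 members were called in either fit. At an unadjusted p below 0.05 there were 6 and 12 members, with no share of all genes given.

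NDUFA2 was low in muff. In the HH29 forelimb it had 24.8, 23.1, 22.7 and 23.7 CPM in the 4 muff libraries, 35.6, 33.1, 36.0 and 40.8 CPM in grouse and 37.3, 26.5, 35.7 and 34.1 CPM in scale. All 4 muff libraries lay below all grouse and all scale libraries. The log2 difference of muff over grouse was -0.62 (SE 0.11, adjusted p = 0.033 by edgeR). The call was lost in 7 of 8 fits that left out 1 library, with the replicate number as a block (adjusted p = 0.10) and with a term for replicates 1 and 2 against 3 and 4 (adjusted p = 0.053). DESeq2 gave an adjusted p of 6.0e-06.

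The same order of NDUFA2 stood in the other groups, without passing the test. Muff over grouse was -0.45 in the HH29 hindlimb (adjusted p = 0.058), -0.49 and -0.66 at HH25 and -0.47 and -0.87 at HH21 (forelimb, hindlimb). Much of the spread within these groups ran along the replicate numbers, and the 2 high grouse libraries of the HH21 hindlimb had 67.6 and 47.8 CPM against 27.5 and 21.5 CPM in the others. When stage, limb and replicate set were held, which gives 12 comparisons of 2 libraries against 2, both muff libraries lay below both grouse libraries in 12 of 12. The next highest count for any member in this pair of phenotypes was 9 of 12, and the median over 46 members was 4. How many of all genes reach 12 of 12 is not given. NDUFA2 was singled out as the highest of these counts, and since forelimb and hindlimb libraries of 1 number vary together, the 12 comparisons are not independent. With a term for the replicate sets, edgeR called NDUFA2 lower in muff than grouse in the HH21 hindlimb (-0.81) and in both limbs at HH25 (-0.48 and -0.66). NDUFA2 lies between TMCO6 and IK in the RefSeq gene table, and whether reads of these neighbours enter its counts was not tested.

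**Figure D4:**
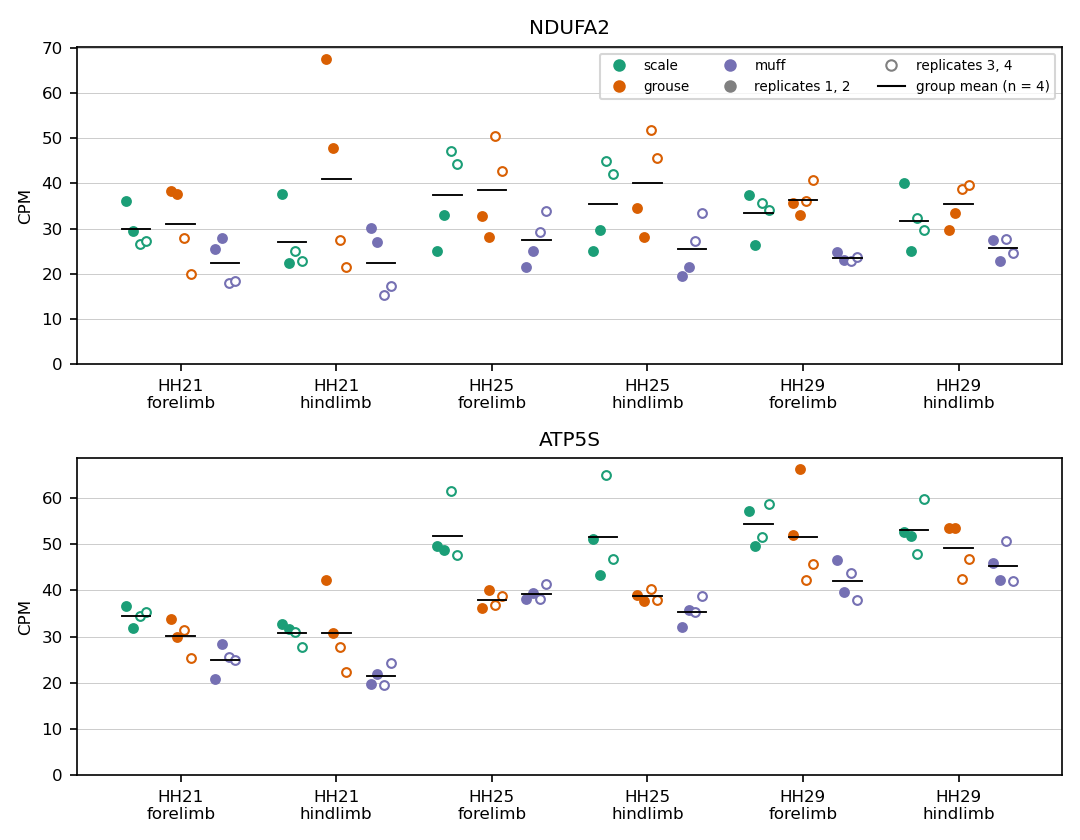
CPM of NDUFA2 (top) and ATP5S (bottom) in each library by stage, limb and phenotype; filled points are replicates 1 and 2, open points 3 and 4, bars group means (n = 4). Muff means lie lowest in all 6 blocks for NDUFA2, and scale means lie highest for ATP5S in 5 blocks and level with grouse in the HH21 hindlimb.

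ATP5S levels were mostly higher in scale than in muff, though edgeR called no difference in the comparisons of 4 libraries against 4. In the HH21 forelimb it had 36.5, 31.8, 34.5 and 35.3 CPM in scale and 20.8, 28.4, 25.6 and 25 CPM in muff. In the HH25 forelimb scale had 49.5, 48.7, 61.6 and 47.7 CPM against 36.1 to 40.1 CPM in grouse and 38.1 to 41.3 CPM in muff. In the HH25 hindlimb scale had 51.1, 43.4, 65.0 and 46.7 CPM against 37.6 to 40.3 CPM and 32.0 to 38.7 CPM. In each of these sets the scale libraries lay above all libraries of the other phenotype named. Muff over scale was -0.48 and -0.53 (HH21), -0.41 and -0.55 (HH25) and -0.36 and -0.22 (HH29) in forelimb and hindlimb, none called, with adjusted p-values from 0.085 to 0.27. With stage, limb and replicate set held, muff was below scale without overlap in 11 of 12. Taking each member in its more frequent direction, the next highest was ATP5J2, which was higher in muff in 10 of 12. The median over 46 members was 4, and such counts over all genes are not given. DESeq2 called ATP5S lower in muff in 5 of these 6 comparisons. At HH25, fits with all 24 libraries of the stage, with the term for replicate sets or with the block also called it lower in muff in both limbs.

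For ATP5S at HH25 another difference ran beside the phenotypes. All 8 scale libraries of HH25 were in the class with high Z-chromosome expression described next, against 2 of 8 grouse and 2 of 8 muff libraries. With that score as a covariate, muff over scale was -0.46 in the forelimb and -0.72 in the hindlimb, not called. At HH21, where 2 of 8 scale and 2 of 8 muff libraries were in the class, the values with the covariate were -0.47 and -0.52.

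Of the members, 3 lie on the Z chromosome in the RefSeq table: NDUFS4, an accessory subunit needed for a stable NADH-oxidising arm, ATP5A1, the alpha subunit of the ATP synthase, and ATP5I, its membrane subunit e. In birds males carry a pair of Z chromosomes and females a single Z with a W, and Z-linked genes are only partly balanced between the sexes. Each library was given a score, the mean log2 CPM of Z genes outside the member list, centred within its stage. The scores fell into separate clusters, at HH21 from -0.46 to -0.0035 and from 0.45 to 0.61, at HH25 up to -0.23 and from 0.23, and at HH29 up to -0.31 and from 0.18. The higher cluster held 4 of 24 libraries at HH21, 12 at HH25 and 14 at HH29.

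NDUFS4 and ATP5A1 separated the clusters at every stage, and ATP5I at HH21 and HH25. The median of NDUFS4 was 80.2 CPM in the higher cluster and 36.9 CPM in the lower at HH21, 79.1 and 39.3 CPM at HH25 and 69.7 and 37.1 CPM at HH29, ratios of 2.17, 2.01 and 1.88 with no overlap at any stage. ATP5A1 had ratios of 1.47, 1.42 and 1.37, also with no overlap. ATP5I had ratios of 1.67, 1.92 and 1.89, and overlapped at HH29 alone, where 1 library of the higher cluster, grouse forelimb replicate 2, had 125 CPM. The other 43 tested members had ratios between 0.76 and 1.29, and 0 of them lay higher in the higher cluster without overlap. ATP5H separated the clusters the other way at HH21, at 87.7 to 97.6 CPM in the 4 libraries of the higher cluster and 100.2 to 154 CPM in the other 20, and overlapped at HH25 and HH29. The clusters are defined by the data and no label gives the sex of the embryos.

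**Figure D5:**
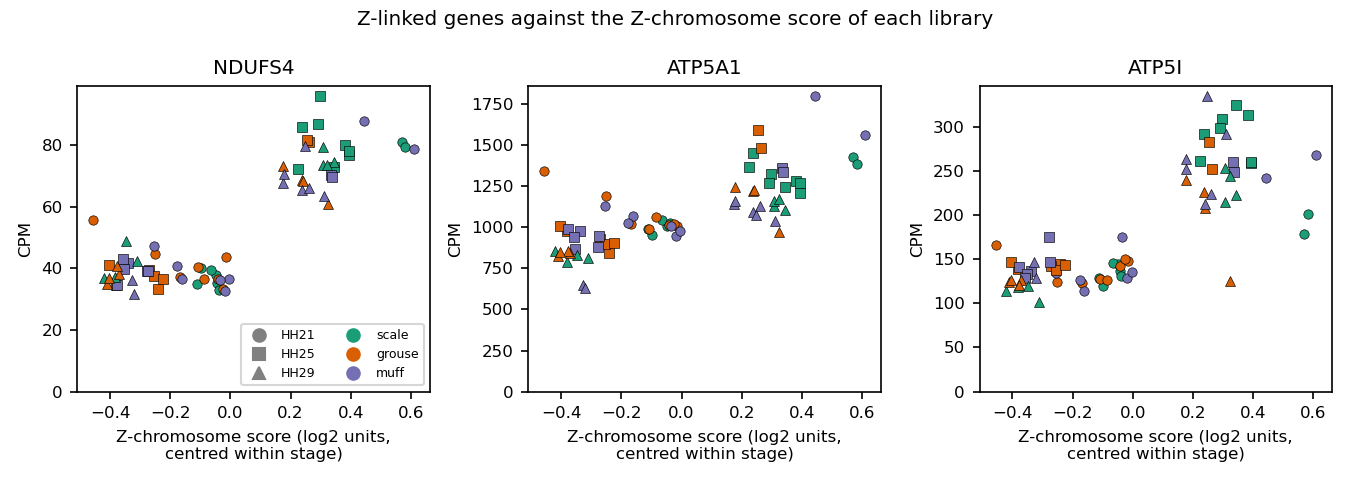
CPM of NDUFS4, ATP5A1 and ATP5I (vertical axes) against the Z-chromosome score of each library (horizontal), 72 libraries, symbols for stage and colours for phenotype. Libraries form a left and a right cloud. Within each stage the right cloud is higher for all 3 genes, apart from 1 HH29 point of ATP5I. Across stages the clouds of ATP5A1 overlap: right HH29 points lie at 969 to 1248 CPM and left HH21 points at 949 to 1344 CPM.

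The clusters were spread unequally over stages and phenotypes, so for these 3 genes cluster and stage or phenotype cannot be fully told apart. The part of the clusters in their calls was not tested beyond the fits given here. ATP5I was called higher at HH25 than HH21, by 0.48 in the forelimb and 0.43 in the hindlimb. For stage steps the covariate was a score of Z genes centred over the libraries of the fit, not within a stage. With it the rise was 0.23 (adjusted p = 0.0066) and 0.10 (adjusted p = 0.45). The hindlimb call was also lost without grouse replicate 4 or muff replicate 1 of HH25, the 2 libraries of those groups in the higher cluster. To HH29 none of the 3 was called without the covariate. With it, ATP5A1 fell by 0.35 and 0.28, NDUFS4 by 0.24 and 0.21 and ATP5I by 0.41 and 0.33 (forelimb, hindlimb), each with an adjusted p of 0.013 or less.

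At HH25 all 8 scale libraries were in the higher cluster, against 2 of 8 grouse and 2 of 8 muff libraries. Phenotype and cluster can therefore hardly be told apart for these genes there. NDUFS4 was -0.83 in muff over scale in the hindlimb (adjusted p = 0.077) and -0.34 with the covariate, and in grouse over scale -0.79 and -0.06. Grouse replicate 4 was the library of its group in the higher cluster. Without it NDUFS4, ATP5A1, ATP5I and ATP5J were called lower in grouse than in scale in each limb. Without muff replicate 1, likewise the library of its group in that cluster, NDUFS4, ATP5A1 and ATP5I were called lower in muff in each limb. Each of these fits sets lower-cluster libraries against higher-cluster scale libraries, so for the Z-linked genes it cannot tell phenotype from cluster. Shares of all genes for these fits are not given. ATP5J, a stalk subunit that is not on Z, was also called lower in grouse than scale with the term for replicate sets.

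The authors' deposited tables compare the phenotypes in the hindlimb and the limbs in scale embryos. Between grouse and muff the authors' deposited tables hold an adjusted p below 0.05 for 2, 7 and 2 members at HH21, HH25 and HH29, beside 4.96%, 8.41% and 7.33% of all features with an adjusted p. Between scale and grouse the authors' deposited tables hold 7, 3 and 0 such members, beside 7.78%, 3.45% and 1.44%. Between scale and muff they hold 6, 12 and 2 in the authors' deposited tables, beside 8.48%, 11.1% and 5.97%. Between the limbs they hold 0, 0 and 0 in the authors' deposited tables, beside 1.89%, 4.05% and 3.22%. NDUFA2 was lower in muff than grouse in the authors' deposited table at all 3 stages, with log2 values of -0.64 (adjusted p = 0.0016), -0.58 (1.1e-07) and -0.38 (0.012). ATP5S was lower in muff than scale there at HH21 (-0.44, adjusted p = 0.010) and HH25 (-0.48, adjusted p = 6.1e-05).

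For the 43 members outside Z, the fold changes of the authors' deposited tables and of the fits here correlated at 0.93 to 0.998 over the 9 hindlimb phenotype comparisons, a description across genes of the same libraries. The Z-linked genes differed. For grouse over scale at HH25 the authors' deposited table gives ATP5A1 at 0.20 (adjusted p = 0.0099), where the fit here gave -0.22 and the fit with the Z score 0.33. NDUFS4 stands in that deposited table at -0.15, against -0.79 and -0.06, and ATP5I at -0.16, against -0.73 and -0.03. The sources used here do not give the terms of the authors' model.

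Other gene lists put the small falls beside their surroundings. Of 15 genes of the citric acid cycle and pyruvate dehydrogenase, 11 and 12 fell to HH25 and 5 and 8 to HH29 (forelimb, hindlimb), and 0 rose. IDH3A, an isocitrate dehydrogenase subunit, fell by 0.28 and 0.32 to HH25 and DLAT, of pyruvate dehydrogenase, by 0.29 and 0.31. Of 64 mitochondrial ribosomal protein genes, 25 and 31 fell and 5 and 0 rose to HH25, and 42 and 45 fell and 0 rose to HH29. Assembly factors of the complexes (22, of which 21 or 22 were tested) gave 8 and 7 falls to HH25 and 7 and 7 to HH29, with 2 rises in each limb to HH25 and 0 later. Import genes gave 5 and 6 falls of 12 to HH25 and 7 and 7 to HH29, with 1 rise in the forelimb at HH25.

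The master regulators were less uniform. Of 12 tested genes for mitochondrial biogenesis, 5 and 4 fell to HH25 and 5 and 6 to HH29, while PPARGC1A, the coactivator PGC-1 alpha, rose in the hindlimb to HH25 by 1.16 (SE 0.20, adjusted p = 2.6e-05). VDAC1, the main pore of the outer membrane, rose in all 4 comparisons, by 1.40 and 1.72 to HH25 and by 0.82 and 0.60 to HH29. Other outer membrane and carrier genes gave 6 falls to HH25 and 4 to HH29 in each limb. Glycolysis genes (13) gave 5 and 6 falls to HH25 and 5 and 4 to HH29, with 2 and 1 rises and then 1 and 1. Cytosolic ribosomal protein genes (66) went the other way in the forelimb at HH25, with 23 rises and 9 falls, against 4 and 10 in the hindlimb, and had 1 rise and 23 falls (forelimb) and 6 and 13 (hindlimb) at HH29.

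Markers of growth and of differentiating tissue moved over the same steps. Of 19 proliferation genes, 18 fell in each of the 4 comparisons. Skeletal muscle markers (12) gave 11 and 12 rises to HH25 and 10 and 11 rises with 1 and 1 falls to HH29, and their summed level ran from 21.9 to 94.4 CPM at HH21 through 211 to 1611 CPM at HH25 to 1770 to 2950 CPM at HH29. Cartilage markers (10) gave 10 and 10 rises and then 8 and 8, from 188 to 578 CPM through 865 to 2426 CPM to 1336 to 3726 CPM. Limb mesenchyme markers, the cells the label names, were present throughout at 401 to 937 CPM. Endothelial markers (7) ran from 241 to 474 CPM, ectoderm markers (4) from 91.9 to 219 CPM, macrophage markers (5) from 26.8 to 83.2 CPM and neural crest and glia markers (4) from 0.777 to 35.2 CPM. The red blood cell list was measured by 1 of its 12 genes, at 122 to 1397 CPM. Their part in the falls was not tested, and in whole buds fewer cells of a type and less RNA per cell cannot be told apart.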

How the data were processed

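The deposited files hold whole-number counts of reads per feature for 72 pigeon libraries, and per the submitters' processing notes FastQC, STAR, featureCounts and DESeq2 were used. The sources used here do not give versions, the genome build or the strand setting of the counting. The authors' deposited comparison tables give log2 fold changes and adjusted p-values per feature. The 24 chicken libraries were not used.

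Counts were summed per symbol, which gave 15899 rows, 1710 of them from several features, and 46 of 47 members passed edgeR's filterByExpr in each comparison. Tests used edgeR 4.0.16 in R 4.3.3 (quasi-likelihood, trimmed-mean scaling, Benjamini-Hochberg over all genes tested, adjusted p below 0.05), and standard errors were derived from each log2 fold change and its F statistic. The scripts were tested on simulated data. DESeq2 1.42.0, other scalings, no filter, counts per feature, blocks for the replicate number, a term for replicates 1 and 2 against 3 and 4, a Z-chromosome covariate and fits without 1 library were alternatives. The fits without the 4 high HH21 hindlimb libraries were added after seeing the data.

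Groups and replicate numbers came from the labels. All 36 pairs of forelimb and hindlimb libraries with 1 phenotype, stage and number had correlated deviations (0.21 to 0.68), each highest with its own number, so the numbers were read as pairing the limbs. In 2 of the 36 pairs the limbs fell into different Z-score clusters. Depth limits precision most for low genes, and intervals were not computed per library.

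The members and lists were chosen with earlier results of these data known. Genes named were the called members with the largest fold changes, a fixed set of core subunits, isoform pairs and Z-linked members, and NDUFS8 was named after its values were seen. For 1 member the values of the gene itself are not reported here, although it is kept in every count. Comparison of members per length was left out because the files give no lengths. Gene names and chromosomes came from a RefSeq gene table, which matched 42 members.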

Additional observations from a re-analysis of the deposited data

Results flagged for a closer look

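For NDUFS4, ATP5I, ATP5A1, ATP5B, ATP5S, NDUFA2 and the summed level, and each group of 4 libraries, the library farthest from the others was tested for its distance. It stood apart in 21 of 126 cases. The cut flags about 1 in 20 by chance for independent values without clusters. The Z-linked genes form clusters and limbs of 1 number vary together, so the count cannot be read against that rate. The summed level had grouse forelimb replicate 2 of HH21 at 8677 CPM, above its group, and muff forelimb replicate 3 of HH21 at 7493 CPM, below it.

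Most of the others concern the Z-linked genes. NDUFS4 stood high in grouse replicate 4 of HH25 (81.1 CPM forelimb, 81.6 CPM hindlimb), muff replicate 1 of HH25 (70.5 and 69.7 CPM) and scale replicate 1 of HH21 (80.9 and 79.4 CPM), and low in muff forelimb replicate 1 of HH29 (36.3 CPM). ATP5I stood high in grouse replicate 4 of HH25 (252 CPM forelimb, 282 CPM hindlimb), muff hindlimb replicate 1 of HH25 (249 CPM), muff forelimb replicate 4 of HH21 (268 CPM) and scale hindlimb replicate 1 of HH21 (201 CPM). In the grouse forelimb of HH29, ATP5I of replicate 3 stood apart at 226 CPM. ATP5A1 stood high in grouse hindlimb replicate 4 (1593 CPM) and muff hindlimb replicate 1 (1333 CPM) of HH25 and scale hindlimb replicate 1 of HH21 (1386 CPM), and low in muff hindlimb replicate 1 of HH29 (628 CPM).

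Outside the Z chromosome, ATP5S stood high in scale forelimb replicate 3 of HH25 (61.6 CPM) and NDUFA2 in scale hindlimb replicate 1 of HH21 (37.8 CPM).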

How the results depend on the processing

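Stage counts moved little with DESeq2 and without single libraries, settings whose shares of all genes are not given. The calls (HH25 forelimb, HH25 hindlimb, HH29 forelimb, HH29 hindlimb, each over the stage before) were 18, 18, 19 and 18 of 46 members with DESeq2 against 17, 18, 18 and 17. When 1 library at a time was left out they ran from 16 to 20, 15 to 19, 13 to 19 and 14 to 18. The median fold change of the members kept its sign in these 4 comparisons under most alternatives for which it was computed. To HH25 it turned to above 0 within replicates 3 and 4, at 0.07 (forelimb) and 0.11 (hindlimb). It also turned in the hindlimb fit without the 4 high libraries described above. SDHD at HH29 in the hindlimb was lost in 5 further fits (no low-count filter, counts per feature, DESeq2, all libraries in 1 fit, replicate number as a block), with adjusted p from 0.052 to 0.064. Fitting all 72 libraries together lost ATP5B, ATP5J2 and NDUFS6 at HH29 in the hindlimb (adjusted p = 0.053, 0.081 and 0.098) and NDUFS6 and NDUFB10 in the forelimb (0.077 and 0.18). Among the alternative settings, calls to HH25 were also lost for NDUFB1, NDUFS3 and NDUFA2 in the forelimb (highest adjusted p = 0.095, 0.089 and 0.059). NDUFA8 was lost to HH25 in the hindlimb (0.078) and NDUFS7 to HH29 in the forelimb (0.087). Where a call was lost, the cause was not tested.

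Limb counts depended on the model. At HH21 they were 0 in the fits without a block, 7 with the replicate block, 3 with a term for replicates 1 and 2 against 3 and 4, 2 with all libraries in 1 fit (ATP5F1 and NDUFS3) and 0 to 2 when 1 library was left out. At HH25 the block gave 6. Shares of all genes are given above for the unblocked fits and the block, and not for the other settings.

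Phenotype counts, 0 apart from 1 in muff over grouse at HH29 (forelimb), moved as follows. For the phenotypes, shares of all genes are given above for the main fits and the term for replicate sets alone. The other settings here have no such share, so their counts cannot be read against all genes. With DESeq2 they were 2 for muff over scale at HH21 (hindlimb) and 1 (forelimb), 5 and 3 for the same pair at HH25, 5 for it in the HH29 forelimb, 2 and 3 for grouse over scale at HH25, and 1 for muff over grouse in the hindlimb at HH25 and at HH29. With all libraries of the stage in 1 fit they were 2 for muff over scale in the HH21 hindlimb, 3 in the HH29 forelimb, and 1 at HH25 for muff over scale and grouse over scale in each limb and for muff over grouse in the hindlimb. Replicate numbers do not pair the phenotypes (20 and 22 of 36 correlations above 0.1 in forelimb and hindlimb) or the stages (4 and 3 of 24). The replicate block gave 6 and 4 for muff over scale at HH25 (hindlimb, forelimb) and 0 for muff over grouse in the HH29 forelimb, and for the stage steps 15, 18, 18 and 19 in the order above. The term for replicate sets gave 2 and 3 for grouse over scale, 6 and 2 for muff over scale and 2 and 2 for muff over grouse at HH25, 2 for muff over grouse in the HH21 hindlimb and 0 in the HH29 forelimb. Without the low-count filter muff over grouse in the HH29 hindlimb had 1 (NDUFA2). When 1 library was left out, counts ran from 0 to 4 for grouse over scale and 0 to 3 for muff over scale at HH25, in each limb, and from 0 to 1 for muff over grouse in either limb and muff over scale in the forelimb at HH29. The call added without scale forelimb replicate 2 was NDUFA2 and that without muff hindlimb replicate 2 was ATP5E.

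In checks of single named genes under settings other than leaving out a library, 1157 values kept their side of the threshold, 42 newly passed it and 23 no longer did, and 0 changed sign past it. At 4 libraries a group, differences near the spread between libraries were not detectable, and NDUFA4L2 was too low to test.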
